A study of Mus musculus with 2 samples.

Results

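The 10 genes described here are the MHC class I genes H2-K1, H2-D1, H2-Q4, H2-Q6, H2-Q7, H2-T23, B2m, Tap1, Tap2 and Nlrc5, taken by symbol from the 32285 genes counted, and all 10 were present in both libraries. They were read in each cell type and in each of 2 single-cell RNA libraries of cells sorted from AT3 tumors, a mouse mammary carcinoma line. The WT library came from Pgd fl/fl mice, which carry the floxed Pgd alleles and no Cre, and the 6PGDKO library from Pgd fl/fl LysM-Cre mice, in which Cre is driven by the Lyz2 locus and so acts in myeloid cells. Pgd encodes 6PGD, an enzyme of the pentose phosphate pathway. In both groups 500000 AT3 cells had been injected into female mice of 6 to 12 weeks, and tumors were taken on day 30. Each library pooled the cells of 10 mice, so a genotype was 1 sample, no test between genotypes was possible, and every interval below is a 95% interval that covers counting error only.

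MHC class I molecules carry peptides from inside the cell to its surface, where CD8 T cells read them. A heavy chain pairs with β2-microglobulin, the product of B2m, and is loaded in the endoplasmic reticulum with peptides that the TAP transporter, made of the Tap1 and Tap2 products, pumps in from the cytosol. H2-K1 and H2-D1 encode the classical heavy chains that present to CD8 T cells. H2-Q4, H2-Q6, H2-Q7 and H2-T23 encode non-classical heavy chains, of which the H2-T23 product, Qa-1, is the ligand of the CD94-NKG2A receptor of NK cells and T cells. Nlrc5 encodes a transactivator that, with the RFX complex, acts on the promoters of the class I genes, and interferon-gamma raises the whole set.

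The class I promoters are shown because the heavy chain genes share a block of short motifs in them. The gene models of H2-K1 (chr17:33996012-34000619), Tap1 (chr17:34187556-34197225), Tap2 (chr17:34204479-34216321), H2-D1 (chr17:35263094-35267497), H2-Q4 (chr17:35379617-35384674), H2-Q6 (chr17:35424850-35430055), H2-Q7 (chr17:35439140-35443773) and H2-T23 (chr17:36029977-36032701) all lie in the MHC on chromosome 17, while B2m is on chromosome 2 (chr2:122147687-122153082) and Nlrc5 on chromosome 8 (chr8:94434335-94527272), by RefSeq on GRCm38.p6. RefSeq promoter sequences of the same build were matched for 8 of the 10 genes, not for Tap2 and Nlrc5. The lines below run 5′ to 3′ on the strand of the gene and stop before the start of its RefSeq gene model. Capitals mark a κB-like motif (GGGATTNCC or GGACTTTCC), an ISRE-like motif (GAANNGAAA or GAAANNGAA), the X2-like TGACG and the Y box CCAAT, each on either strand. They cover chr17:35262918-35263093 (+) for H2-D1, chr17:35379438-35379616 (+) for H2-Q4, chr17:35424672-35424849 (+) for H2-Q6, chr17:35439017-35439138 (+) for H2-Q7, chr17:36032702-36032830 (-) for H2-T23, chr2:122147542-122147686 (+) for B2m and chr17:34187328-34187555 (+) for Tap1. For H2-K1, whose gene model reaches past the window, 30 bases with the first 2 motifs are given (chr17:34000428-34000457, -).
H2-K1: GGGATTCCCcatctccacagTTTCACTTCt
H2-D1: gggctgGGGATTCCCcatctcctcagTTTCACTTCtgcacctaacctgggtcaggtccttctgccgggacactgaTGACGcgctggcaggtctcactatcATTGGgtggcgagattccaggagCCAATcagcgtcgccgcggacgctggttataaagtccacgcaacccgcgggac
H2-Q4: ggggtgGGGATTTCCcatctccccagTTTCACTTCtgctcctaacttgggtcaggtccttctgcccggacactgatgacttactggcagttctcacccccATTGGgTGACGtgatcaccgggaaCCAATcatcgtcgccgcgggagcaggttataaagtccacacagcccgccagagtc
H2-Q6: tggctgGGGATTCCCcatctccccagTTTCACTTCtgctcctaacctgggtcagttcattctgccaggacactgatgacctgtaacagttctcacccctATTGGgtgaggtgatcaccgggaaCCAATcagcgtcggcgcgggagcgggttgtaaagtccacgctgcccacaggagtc
H2-Q7: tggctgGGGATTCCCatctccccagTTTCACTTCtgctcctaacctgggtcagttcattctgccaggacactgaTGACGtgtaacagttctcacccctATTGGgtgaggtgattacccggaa
H2-T23: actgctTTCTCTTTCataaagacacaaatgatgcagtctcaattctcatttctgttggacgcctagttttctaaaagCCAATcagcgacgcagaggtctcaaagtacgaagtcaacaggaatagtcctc
B2m: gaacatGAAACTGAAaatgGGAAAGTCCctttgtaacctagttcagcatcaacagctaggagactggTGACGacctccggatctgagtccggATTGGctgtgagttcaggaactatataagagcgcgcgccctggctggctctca
Tap1: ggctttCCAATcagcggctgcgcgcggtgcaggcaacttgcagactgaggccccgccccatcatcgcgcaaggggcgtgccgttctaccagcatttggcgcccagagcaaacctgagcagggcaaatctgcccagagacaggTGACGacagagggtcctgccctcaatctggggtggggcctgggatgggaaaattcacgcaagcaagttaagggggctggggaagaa

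Over the 250 bases before the start, the κB-like motif was in 6 of the 8 windows (H2-K1, H2-D1, H2-Q4, H2-Q6, H2-Q7 and B2m) and in 1.10% of all 32851 promoter windows of that length. The ISRE-like motif was in 7 of 8, all but Tap1, against 12.5% of all windows. TGACG was in 6 of 8 against 17.8%, and CCAAT in 8 of 8 against 33.8%. These matches did not all hold the same place. TGACG lay before ATTGG, the reverse of CCAAT, in H2-K1, H2-D1, H2-Q7 and B2m, but after it in H2-Q4 (first bases at -73 and -79). In Tap1 the only CCAAT began at -222, before the TGACG at -86. In the 5 heavy chain genes with both, the κB-like and the ISRE-like motif followed each other in the same order, while in B2m the order was the opposite, and H2-T23 held the ISRE-like motif without the κB-like one. A match is a run of letters, and no factor was measured on it.

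In the WT library 3565 of 3728 barcodes passed the cell filters, and in the 6PGDKO library 2798 of 3014, with a median of 5554 and 7926 unique molecules (UMIs) per kept cell. The libraries shared 0 barcodes, and the hashing oligo of each barcode was that of its own library in all cases. As the hashed cells were loaded together, this may follow from how barcodes were assigned, and it is no separate check of genotype. Cells formed 19 clusters, and none of the 10 genes was among the 2000 variable genes used to form them. Pgd was counted at 104 CPM (the UMIs of a gene as a part of all UMIs of the summed cells, scaled to the usual fixed total) in WT macrophages and 29.9 CPM in 6PGDKO macrophages, and Lyz2, the gene that carries the Cre, at 3080 and 25.4 CPM. The labels describe the sort as CD45+ in one sentence and CD11b+ in another, and the clusters included T and B cells. The paper on these data states that the sort was for live CD45+ cells. Levels below are CPM of the UMIs summed over the cells of a type, read from 3′ ends and therefore not divided by gene length. Where heavy chain genes share sequence their counts are less certain. Of the 91-base stretches in the last 500 bases of the annotated transcripts, 78.6% for H2-Q6 and 87.6% for H2-Q7 occurred in no other gene, against 95.03% for H2-K1, 99.4% for H2-D1, 94.4% for H2-Q4, 93.5% for H2-T23 and 100% for B2m, Tap1, Tap2 and Nlrc5.

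The order of levels is given over 9 types, which leave out the 16 mast cells of 6PGDKO and the epithelial cluster's cells with few keratin UMIs. The classical heavy chain H2-K1 was read in these 9 types within a factor of 1.92 in WT and 1.99 in 6PGDKO, lowest in B cells and highest in keratin-positive epithelial cells. It stood at 1406 CPM (1490 in 6PGDKO) in B cells, 1738 (1562) in a cluster marked by Cd207 and Epcam, 2104 (2092) in monocytes, 2211 (1572) in neutrophils, 2326 (2146) in DCs, 2364 (2749) in T cells, 2436 (2345) in NK cells and ILCs, 2517 (2357) in macrophages and 2700 (2965) in keratin-positive cells. In the WT order, 5 of the 8 pairs of neighbours had overlapping intervals, and B cells, the Cd207 Epcam cluster and the keratin-positive cells stood apart from their neighbours. H2-D1, the other classical chain, was likewise lowest in B cells, at 1466 CPM in WT and 1341 CPM in 6PGDKO. It was highest in neutrophils, at 2890 and 2894 CPM, with WT macrophages at 2885 CPM overlapping them. The mast cells had 1037 CPM of H2-K1, below any of the 9 types, and 1749 CPM of H2-D1. The plot of levels by cell type shows all 10 genes.

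**Figure D1:**
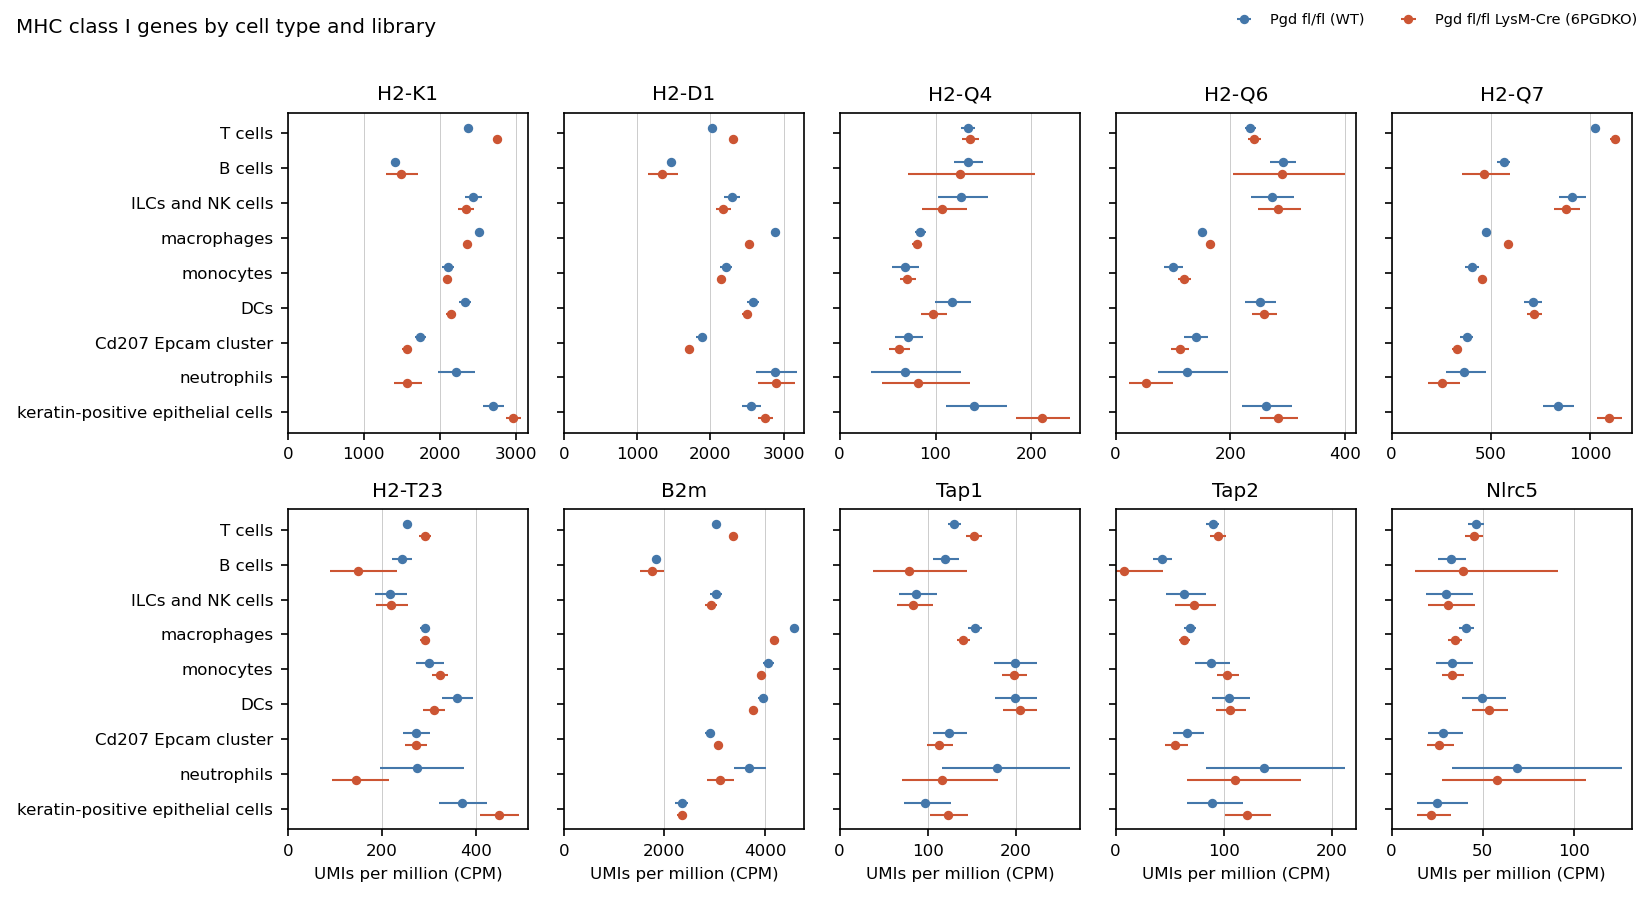
Level of each MHC class I gene (x axis, CPM, linear and starting at 0) in 9 cell types (y axis), for the WT library (blue) and the 6PGDKO library (orange). Points are values of 1 library and bars are 95% Poisson intervals. B cells are lowest for H2-K1, H2-D1 and B2m in both libraries, and macrophages are highest for B2m (4582 and 4177 CPM).

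Among the non-classical chains, H2-Q4 and H2-Q6 were higher in T cells, B cells and NK cells with ILCs than in macrophages, monocytes, neutrophils and the Cd207 Epcam cluster, in both libraries. Of the 9 types, H2-Q7 was highest in T cells, at 1023 CPM in WT and 1124 CPM in 6PGDKO, and lowest in neutrophils, at 364 and 255 CPM, a factor of 2.81 and 4.40. The mast cells had 105 CPM of H2-Q7, from 12 UMIs. H2-Q6 was highest in B cells, at 291 CPM in WT and 290 CPM in 6PGDKO, where the classical chains were lowest. Its lowest values were 99.6 CPM in WT monocytes and 52.2 CPM in 6PGDKO neutrophils, the latter from 9 UMIs. H2-Q4, the least abundant heavy chain of the 6 in most types, was highest in keratin-positive cells, at 140 and 211 CPM. It was between 125 and 136 CPM in T and B cells of both libraries and between 61.5 and 84.0 CPM in macrophages, monocytes and the Cd207 Epcam cluster. H2-T23 was highest in keratin-positive cells, at 369 and 448 CPM, and its WT types all overlapped their neighbours in the order. Its lowest values were 217 CPM in WT NK cells and ILCs and 145 CPM in 6PGDKO neutrophils.

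B2m was the most abundant of the 10 genes in the 8 leukocyte types other than mast cells, and its order of types differed from those of the heavy chains. It was highest in macrophages, at 4582 CPM in WT and 4177 CPM in 6PGDKO, followed by monocytes at 4067 and 3927 CPM and DCs at 3962 and 3767 CPM. T cells had 3038 and 3370 CPM, and B cells had 1827 and 1748 CPM, the lowest of the 9 types in both libraries. Mast cells had 1661 CPM of B2m, with H2-D1 at 1749 CPM. In keratin-positive cells B2m stood at 2343 CPM in both libraries, above B cells and below the other 7 of the 9 types.

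Tap1 and Tap2, the transporter genes, were read at far lower levels than B2m. Tap1 was highest in DCs, at 199 CPM in WT and 204 CPM in 6PGDKO, and monocytes had 198 CPM in both libraries. T cells had 130 and 152 CPM, macrophages 153 and 140 CPM, and NK cells and ILCs 86.7 and 83.5 CPM. Tap2 was lowest in B cells, at 42.8 CPM in WT from 97 UMIs and 7.84 CPM in 6PGDKO from 1 UMI in 35 cells. Its highest values were 137 CPM in WT neutrophils, from 20 UMIs (83.9 to 212 CPM), and 121 CPM in 6PGDKO keratin-positive cells, from 129 UMIs. In the order of Tap2, 8 of 8 pairs of neighbours overlapped in WT and 7 of 8 in 6PGDKO. Tap1 made up more than 50% of the Tap1 and Tap2 UMIs in all 9 types of both libraries, from 51.9% and 50.2% in keratin-positive cells to 73.6% and 90.9% in B cells, the last from 11 UMIs.

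Nlrc5, the transactivator, had the lowest level of the 10 genes in every WT type, tied with H2-Q4 in neutrophils at 10 UMIs each. It ranged from 25.1 CPM in keratin-positive cells to 68.7 CPM in neutrophils in WT, and from 21.7 to 58.0 CPM in the same 2 types in 6PGDKO. All 8 pairs of neighbours in its order overlapped in both libraries. When each cell was thinned to 2000 UMIs, 10.4% of WT T cells (8.93 to 11.95%) and 9.33% of 6PGDKO T cells (7.62 to 11.3%) held an Nlrc5 UMI, as did 7.89% and 6.90% of macrophages and 11% and 6.62% of DCs. Unthinned, the shares in DCs were 49.5% and 52.2%, since a DC held a median of 13463 and 14848 UMIs against 4879.5 and 5316.5 in a T cell. A Tap1 UMI was found in 34.0% and 36.0% of thinned DCs, 25.6% and 23% of macrophages and 22.8% and 25.8% of T cells, and unthinned in 88.1% and 84.8% of DCs, 72.6% and 70.2% of macrophages and 44.7% and 54.8% of T cells.

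The balance between members within a cell, which needs no scaling by the total, differed between cell types. H2-K1 made up 53.8% of the H2-K1 and H2-D1 UMIs of T cells in WT (53.3 to 54.3%) and 54.3% in 6PGDKO (53.8 to 54.8%). It made up 46.6% in WT macrophages (46.2 to 47.0%) and 48.2% in 6PGDKO macrophages (47.7 to 48.6%), and 47.4% and 46.1% in DCs. Neutrophils had the lowest shares of the 9 types, 43.3% (39.7 to 47.0%) and 35.2% (31.8 to 38.7%). Mast cells, of which only the 6PGDKO library held a cluster (16 cells), had 37.2%. The 6 clusters of T cells all had H2-K1 above 50% in both libraries, from 51.9% to 57.1%, with the lowest in the Lef1 cluster of 6PGDKO.

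The 4 non-classical chains made up 27.2% and 26.1% of the UMIs of the 6 heavy chains in T cells and 29.98% and 26.6% in B cells. In macrophages they made up 15.6% (15.3 to 15.9%) and 18.7% (18.4 to 19.0%), in monocytes 16.8% and 18.6%, and in neutrophils 14.0% and 10.7%. Of the H2-Q6 and H2-Q7 UMIs, H2-Q6 took 34.0% and 38.5% in B cells and 18.7% and 17.7% in T cells, with the other types between 16.98% and 26.96%. Since those 2 genes share part of their 3′ ends, reads may have been lost or split between them. B2m made up 43.9% and 43.0% of the UMIs of B2m and the 6 heavy chains in monocytes, 33.5% and 33.0% in T cells, and 25.4% (24.3 to 26.7%) and 23.2% (22.4 to 24.01%) in keratin-positive cells, the lowest share of the 9 types.

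**Figure D2:**
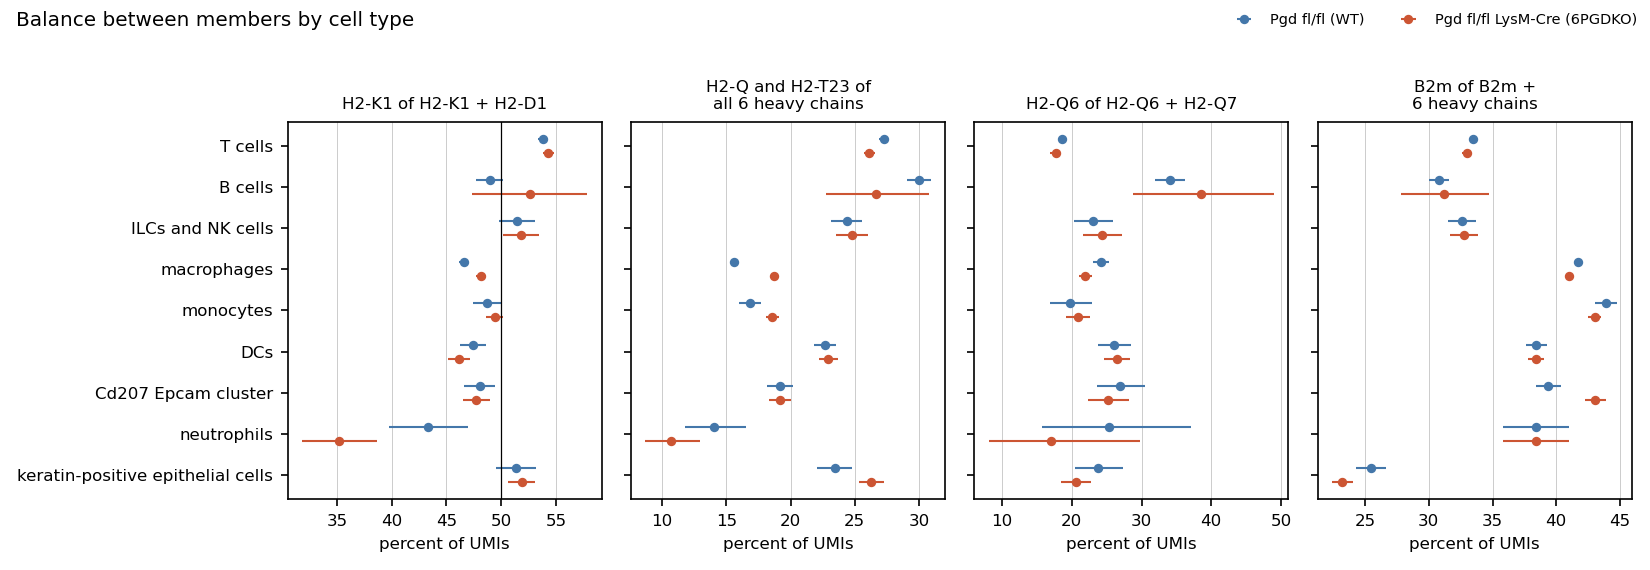
Balance between MHC class I genes in 9 cell types (y axis), as percent of the UMIs of the genes named above each panel (x axis, not starting at 0), for the WT (blue) and 6PGDKO (orange) libraries with 95% Clopper-Pearson intervals. T cells lie to the right of the 50% line for H2-K1 (53.8% and 54.3%) and neutrophils to the left (43.3% and 35.2%), and keratin-positive cells have the lowest B2m share (25.4% and 23.2%).

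H2-K1 differed more between T cell clusters than between cell types. The cluster led by Tnfrsf4 and Foxp3, the gene of the regulatory T cell transcription factor, had the highest H2-K1 of all clusters, 4588 CPM in WT and 4772 CPM in 6PGDKO. In the cluster led by Lef1, a transcription factor of naive T cells, H2-K1 was 1539 and 1263 CPM. The Cd8b1 and Cd8a cluster had 1914 and 1863 CPM, the cluster led by cell cycle genes 2195 and 2497 CPM, the Ccl1 and Cd4 cluster 2344 and 2525 CPM, and the cluster led by the interferon-induced Ifit3 and Ifit1 2738 and 2584 CPM. The Foxp3 cluster also had the highest H2-D1 (3836 and 3782 CPM), H2-Q7 (1644 and 1656 CPM) and, among T cells, B2m (4717 CPM in both). In the same cluster Tap1 stood at 218 and 226 CPM and Nlrc5 at 50.3 and 50.7 CPM, the latter no higher than in the Lef1 cluster of WT (50.9 CPM). Among T cell clusters, Nlrc5 was highest in the Ifit cluster, at 74.7 and 73.7 CPM, from 17 and 16 UMIs. Beside the 6 T cell clusters, the plot by cluster shows the 4 macrophage clusters, among which the one led by Retnla had the lowest H2-Q7, 204 CPM in WT from 15 cells and 165 CPM in 6PGDKO from 50 cells.

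**Figure D3:**
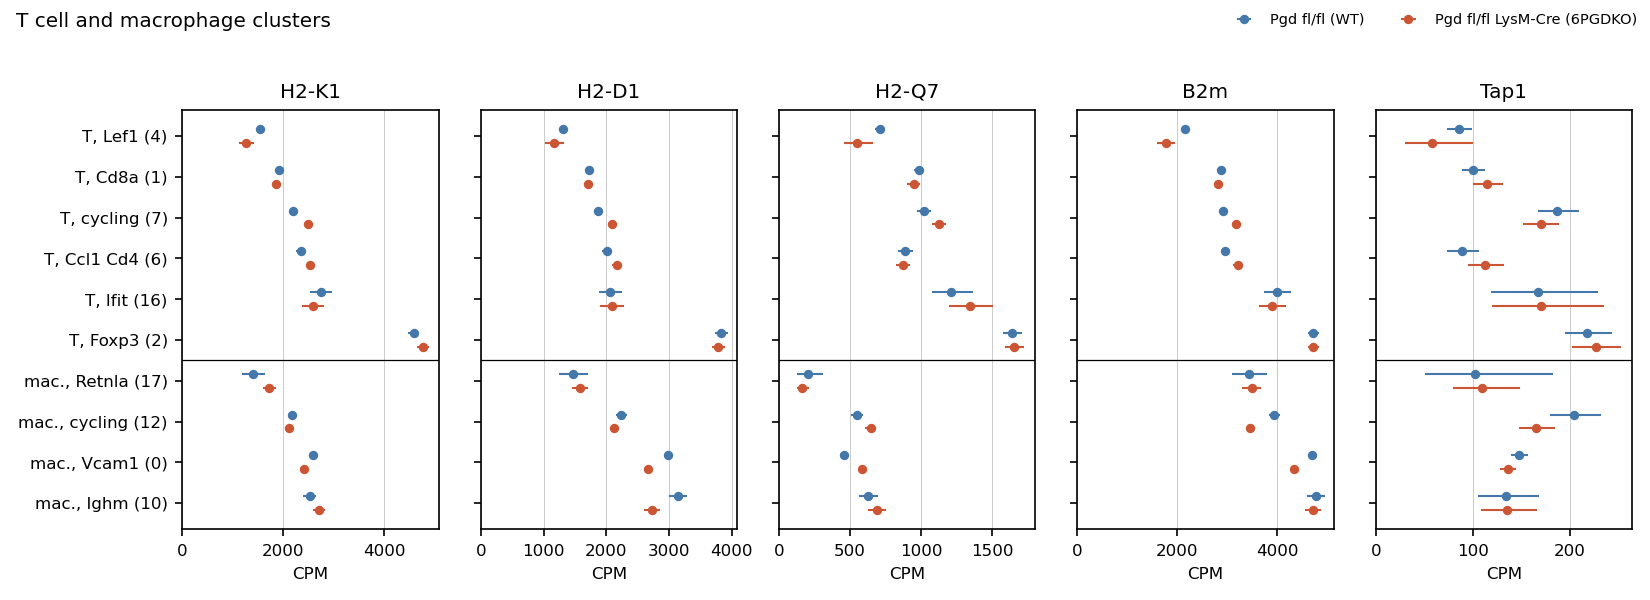
Level of 5 MHC class I genes (x axis, CPM, starting at 0) in the 6 T cell clusters (above the line) and the 4 macrophage clusters (below it), named by their leading genes with the cluster number in parentheses; WT in blue, 6PGDKO in orange, bars are 95% Poisson intervals. The Foxp3 cluster has the highest H2-K1 in both libraries (4588 and 4772 CPM) and the Lef1 cluster the lowest among T cells (1539 and 1263 CPM).

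The comparison of the genotypes asks whether loss of 6PGD in myeloid cells goes with another level of class I genes in them or in the cells around them. Over the 9 cell types and 10 genes, 83 of the 90 values rested on at least 50 UMIs, and 6 of these 83 differed by at least 0.5 on the log2 scale, that is 1.41-fold. Of all genes with at least 50 UMIs, between 11.3% (macrophages) and 46.0% (B cells) passed this fold, by type. Of genes with at least 200 UMIs, between 4.19% (NK cells and ILCs) and 35.5% (neutrophils) did. None of the 6 values was in macrophages, monocytes or T cells. Over all leukocytes, 3493 in WT and 2701 in 6PGDKO, H2-K1 was counted at 2289 and 2330 CPM, H2-D1 at 2324 and 2340 CPM, and H2-Q7 at 703 CPM in both. The log2 ratios of the 10 genes, 6PGDKO over WT, ran from -0.20 for H2-Q4 (108 and 94.2 CPM) to 0.09 for H2-T23 (273 and 292 CPM). The pools differed in make-up, with 566 and 35 B cells, 470 and 52 cells of the Lef1 cluster, and 130 and 331 monocytes. These pooled ratios therefore mix make-up with level, and the part of each was not tested.

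In macrophages, where Cre acted, the members differed in direction. The classical chain H2-D1 was counted at 2885 CPM in WT and 2535 CPM in 6PGDKO, a log2 ratio of -0.19 (-0.21 to -0.16), and B2m at 4582 and 4177 CPM, a ratio of -0.13 (-0.15 to -0.11). H2-Q7 was higher in 6PGDKO, 587 against 474 CPM (0.31, 0.25 to 0.36), and H2-Q6 likewise, 165 against 151 CPM (0.13, 0.03 to 0.23). H2-T23 had 291 CPM in both. In all, 7 members were lower and 3 higher, with a median of -0.10 (the median of all 10492 genes was 0.07). Of the members, 0 of 10 passed the fold, which 11.3% of all genes with at least 50 UMIs did. Every member had more than 200 UMIs in these cells, and of all genes with at least 200 UMIs 5.87% passed. The H2-Q7 ratio was 0.37 (0.30 to 0.43) in the largest macrophage cluster, 0.24 (0.09 to 0.38) in the cycling one and 0.13 (-0.07 to 0.34) in the one with Ighm among its leading genes, and -0.31 in the Retnla cluster, whose WT cells were 15. The 7 T cell markers summed to 607 CPM in WT macrophages and 900 CPM in 6PGDKO macrophages, with all 7 found in both, the 7 markers of NK cells and ILCs to 141 and 295 CPM, and the 6 B cell markers to 565 and 105 CPM. Without cells that carried 2 or more UMIs of another lineage's markers, the H2-Q7 ratio was 0.31.

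Monocytes, DCs, NK cells with ILCs and the Cd207 Epcam cluster held no member past the fold, where 16.1%, 15.4%, 13.5% and 13.6% of all genes passed. The medians of the 10 members were 0.03 in monocytes, -0.02 in DCs, -0.05 in NK cells and ILCs and -0.15 in the Cd207 Epcam cluster. Under the alternatives the last ran from -0.15 to 0.04, that of NK cells and ILCs from -0.08 to 0.06 and that of monocytes from -0.10 to 0.13. None of these kept its direction, while the DC median stayed below 0 in 7 of 7 alternatives (-0.09 to -0.01). Monocytes were 22 and 43 cells at a resolution of 1.6 and 21 and 52 cells with marker gates, against 130 and 331 otherwise named. In monocytes, with Pgd at 76.0 and 30.3 CPM, H2-K1 was 2104 and 2092 CPM (-0.01, -0.07 to 0.05) and H2-Q7 405 and 454 CPM (0.17, 0.03 to 0.31). In DCs H2-T23 was 359 and 309 CPM (-0.22, -0.38 to -0.05). In the Cd207 Epcam cluster H2-K1 was 1738 and 1562 CPM (-0.15, -0.23 to -0.08), and B2m went the other way, 2910 and 3060 CPM (0.07, 0.01 to 0.13). That cluster was given no cell type name. Each of these differences was smaller than the fold used for counts.

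T cells as a whole had 9 of the 10 members higher in 6PGDKO, all by less than the fold. H2-K1 stood at 2364 CPM in WT and 2749 CPM in 6PGDKO (0.22, 0.19 to 0.25), H2-D1 at 2029 and 2313 CPM (0.19, 0.16 to 0.22), and B2m at 3038 and 3370 CPM (0.15, 0.13 to 0.17). The median of the members was 0.14 beside 0.10 for all 9911 genes, of which 12.7% passed the fold and none of the members. Of genes with at least 200 UMIs, 6.91% passed. The Lef1 cluster, low in class I genes, held 470 of the 1694 WT T cells and 52 of the 1068 in 6PGDKO. Without it, the median of the members was 0.05, H2-K1 0.10, H2-D1 0.07 and B2m 0.05. Within the Foxp3 cluster H2-K1 differed by 0.06 (0.01 to 0.11) and H2-D1 by -0.02 (-0.07 to 0.03), and within the Cd8a cluster the median of the 10 members was -0.003. In the cycling cluster, however, H2-K1 was higher by 0.19 (0.12 to 0.25), H2-D1 by 0.16 (0.09 to 0.23) and B2m by 0.12 (0.06 to 0.17), and in the Ccl1 and Cd4 cluster H2-K1 by 0.11 (0.04 to 0.18), H2-D1 by 0.10 (0.03 to 0.18) and B2m by 0.11 (0.05 to 0.18). In the Lef1 cluster itself 8 members were lower in 6PGDKO, with H2-K1 at -0.29 (-0.47 to -0.10) and B2m at -0.28 (-0.44 to -0.13).

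**Figure D4:**
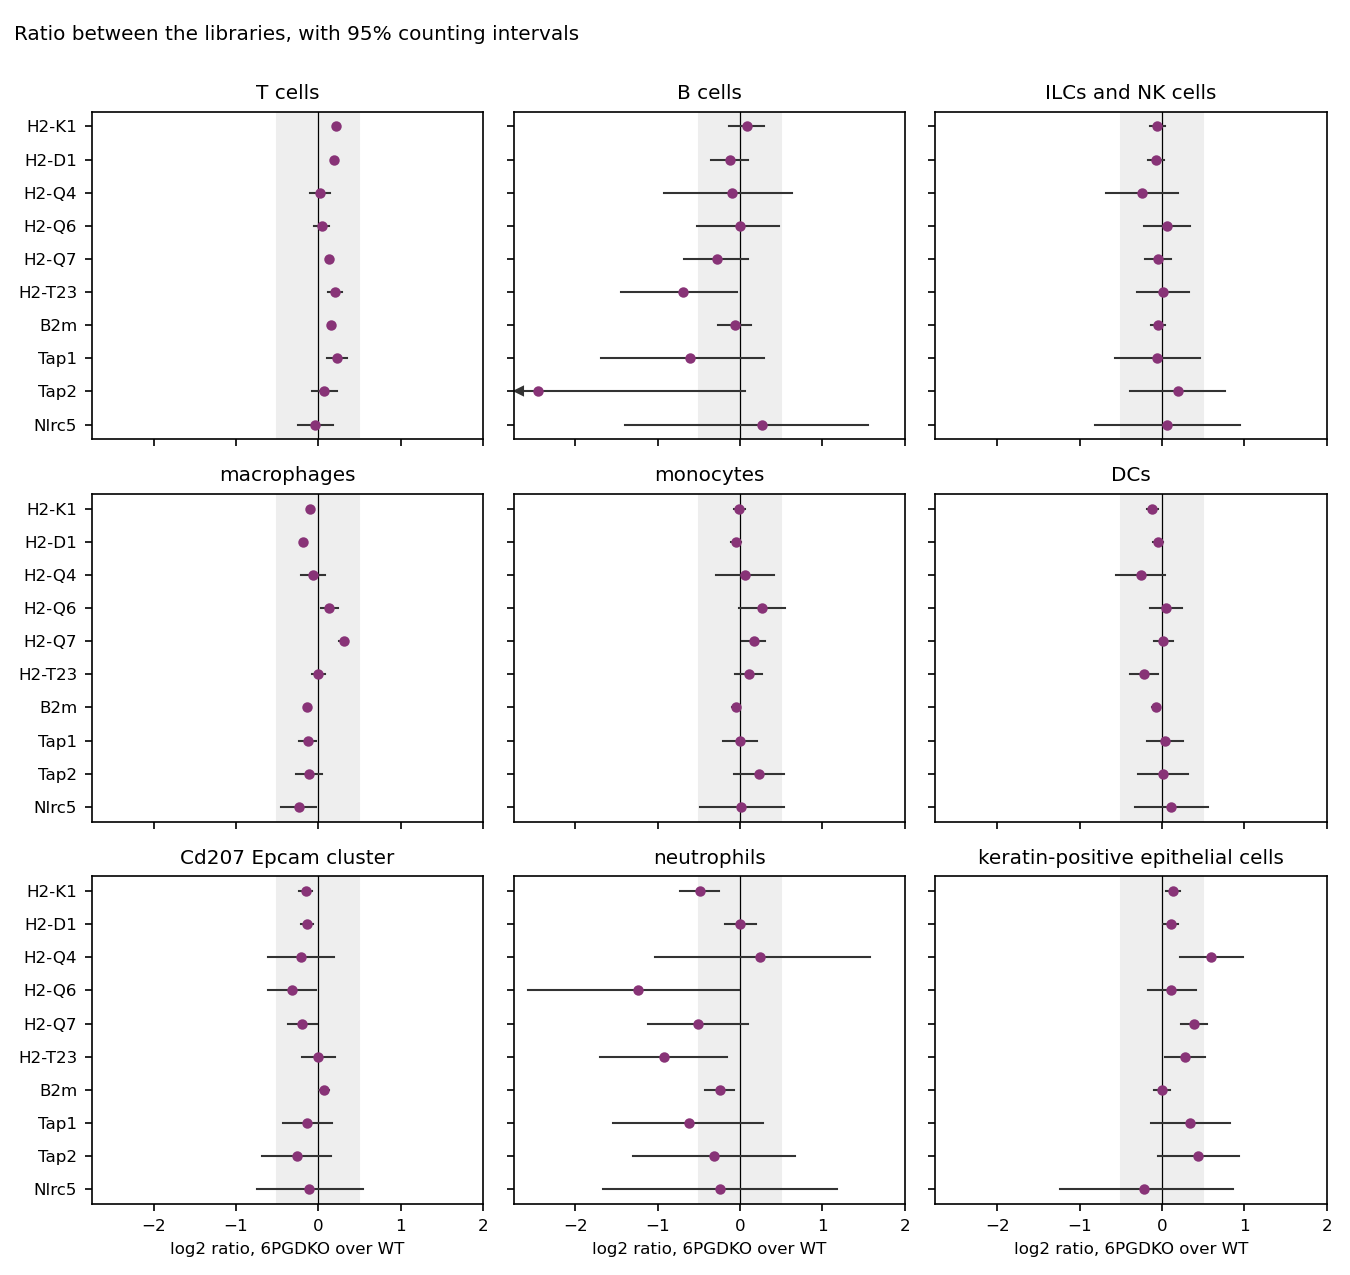
Log2 ratio of each MHC class I gene, 6PGDKO over WT (x axis), in 9 cell types, with 95% exact intervals of counting error; the grey band spans -0.5 to 0.5, the arrow marks an interval that runs past the axis. Values of macrophages, monocytes and T cells lie in the band, and those outside it are in B cells, neutrophils and, for H2-Q4 (0.59), keratin-positive cells.

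B cells and neutrophils, with few cells or few UMIs, held 5 of the 6 values past the fold. In B cells, 566 in WT and 35 in 6PGDKO, H2-T23 was 242 and 149 CPM (-0.70, -1.44 to -0.04), Tap1 120 and 78.4 CPM (-0.61, -1.69 to 0.29) and Tap2 42.8 and 7.84 CPM (-2.45, -7.77 to 0.06). Of all 4440 genes, 46.0% passed the fold in these B cells. H2-K1 (0.08, -0.14 to 0.29) and B2m (-0.06, -0.26 to 0.13) did not. The T cell markers, 7 of 7 found in both libraries, summed to 367 and 604 CPM in these B cells, and their part in the ratios was not tested. In neutrophils, 58 and 72 cells with a median of 2243.5 and 2113 UMIs, H2-T23 was 275 and 145 CPM (-0.92, -1.70 to -0.16) and H2-Q7 364 and 255 CPM (-0.51, -1.12 to 0.09), where 39.1% of 891 genes passed and only 5 members reached 50 UMIs. H2-K1 was 2211 and 1572 CPM (-0.49, -0.73 to -0.25) while H2-D1 was 2890 and 2894 CPM (0.00, -0.19 to 0.19). In the same neutrophils the T cell markers summed to 714 and 302 CPM, the B cell markers to 584 CPM with 6 of 6 found and 168 CPM with 2 of 6 found, and the macrophage markers to 1092 and 766 CPM with 5 of 7 found and Mrc1 and Mertk at 0 in both, and their part in these ratios was not tested.

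Keratin-positive epithelial cells were those of 1 cluster with at least 5 UMIs of Krt8, Krt18, Krt19, Krt7 and Krt14, a number set after seeing the data. They were 27 of 72 cells of that cluster in WT and 48 of 97 in 6PGDKO, with a median of 23 and 33.5 keratin UMIs, and 7 and 5 of them had under 10. The 7 epithelial markers, all detected in both libraries, summed to 3189 and 4732 CPM in them. Ptprc, which encodes CD45, was 106 and 94.1 CPM against 609 and 572 CPM in leukocytes. As the paper states a sort for CD45+ cells, these cells need not stand for the epithelial cells of the tumor. How they came through the sort was not tested. All 6 heavy chains were higher in them than in the leukocytes of the same library, and B2m, Tap1 and Nlrc5 were lower. The log2 ratio of keratin-positive cells to leukocytes was 0.24 (0.16 to 0.31) in WT and 0.35 (0.30 to 0.40) in 6PGDKO for H2-K1, 0.14 (0.06 to 0.22) and 0.23 (0.18 to 0.29) for H2-D1, and 0.43 (0.23 to 0.63) and 0.62 (0.48 to 0.75) for H2-T23. For B2m it was -0.61 (-0.69 to -0.53) and -0.68 (-0.74 to -0.62). Nlrc5 rested on 14 and 23 UMIs, at -0.72 (-1.60 to 0.03) and -0.82 (-1.48 to -0.23). Against T cells alone 5 members were higher and 5 lower in WT, so the order depends on which leukocytes are taken.

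Both directions also appeared in the cells without a Ptprc UMI, 19 in WT and 26 in 6PGDKO. In them H2-K1 was 2753 and 2803 CPM, H2-D1 2738 and 2632 CPM, and B2m 2326 and 1905 CPM. In the cells with a Ptprc UMI, 8 and 22, H2-K1 was 2573 and 3129 CPM, H2-D1 2137 and 2873 CPM, H2-T23 218 and 478 CPM and B2m 2385 and 2784 CPM. Leukocytes had H2-K1 at 2289 and 2330 CPM and B2m at 3572 and 3749 CPM, so cells with and without a Ptprc UMI lay above leukocytes for H2-K1 and below them for B2m in both libraries. For H2-D1 and H2-T23 the 8 WT cells with a Ptprc UMI lay below the WT leukocytes, which had 2324 and 273 CPM.

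**Figure D5:**
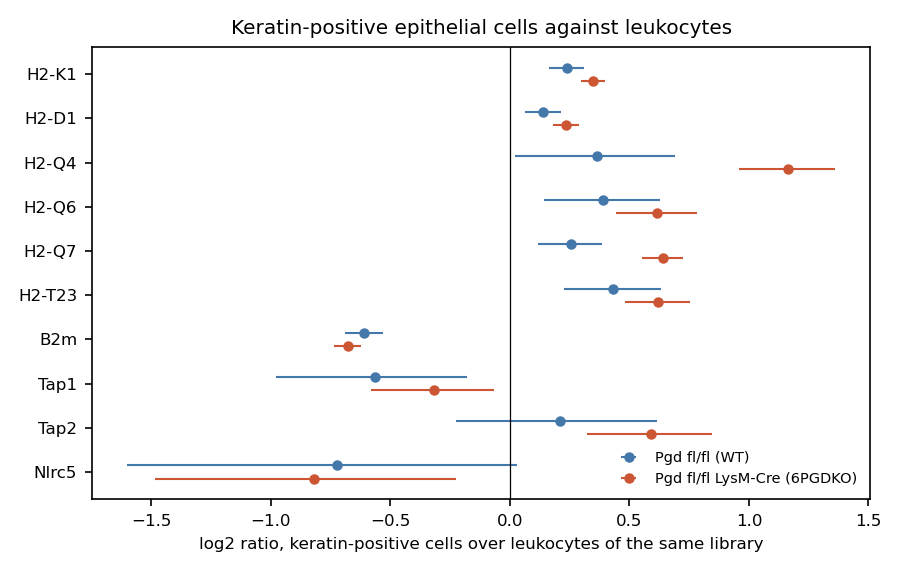
Log2 ratio of each MHC class I gene in keratin-positive epithelial cells over all leukocytes of the same library (x axis), for WT (blue) and 6PGDKO (orange), with 95% exact intervals of counting error. The 6 heavy chains lie right of 0 and B2m left of it in both libraries (-0.61 and -0.68).

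Between the genotypes, 8 of the 10 members were higher in 6PGDKO in keratin-positive cells, and only H2-Q4 passed the fold, at 140 and 211 CPM (0.59, 0.22 to 0.98), where 21.7% of all 4291 genes passed. H2-Q7 was 838 and 1096 CPM (0.39, 0.23 to 0.54), H2-K1 2700 and 2965 CPM (0.14, 0.05 to 0.22), and B2m 2343 CPM in both (0.00, -0.10 to 0.10). With every cell thinned to 2000 UMIs, which left few H2-Q4 UMIs, the H2-Q4 value was -0.76. The cells of the same cluster with fewer keratin UMIs were 45 in WT and 49 in 6PGDKO. They had H2-D1 at 2218 and 3395 CPM (0.61, 0.47 to 0.76), H2-T23 at 273 and 391 CPM (0.52, 0.09 to 0.95) and H2-Q7 at 851 and 1210 CPM (0.51, 0.27 to 0.75). The share of all genes past the fold was not counted in these cells, so no member is called in them. In them H2-Q4 went the other way, at 162 and 135 CPM (-0.26, -0.92 to 0.39). Over the 7 macrophage markers the summed level in the keratin-positive cells was 525 CPM in WT, with Adgre1 and Mrc1 at 0, and 1268 CPM in 6PGDKO, with none at 0. The 7 T cell markers summed to 982 and 681 CPM in the keratin-positive cells, and the part of either in their ratios was not tested.

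Of a list of 46 further genes of the pathway, 44 were in the files and covered other heavy chains, peptide loading, proteasome subunits, regulators, receptors and cytokines. In T cells 39 of them had at least 50 UMIs, with 4 past the fold upwards and 1 downwards and a median of 0.08, where 12.7% of all genes passed. In macrophages it was 5 upwards and 1 downwards of 40 (median 0.01) beside 11.3% of all genes, and in keratin-positive cells 4 upwards and 4 downwards of 27 (median 0.01) beside 21.7%. Of the 6 immunoproteasome genes 4 were lower and 1 higher past the fold in B cells, where 46.0% of all genes passed, and 1 was lower in monocytes and 1 of the 4 counted in neutrophils, with none in the other 6 types.

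H2-M2, a heavy chain gene outside the 10, was lower in 6PGDKO macrophages, monocytes and DCs, 675 and 434 CPM in macrophages (-0.64, -0.69 to -0.58), 132 and 72.2 CPM in monocytes (-0.87, -1.15 to -0.59) and 393 and 222 CPM in DCs (-0.82, -1.001 to -0.64). Ifng was higher in 6PGDKO macrophages, 45.7 and 84.3 CPM (0.88, 0.71 to 1.05), and in 6PGDKO monocytes, 19.2 and 57.8 CPM (1.59, 1.00 to 2.24). Keratin-positive cells went the same way for Ifng, 30.5 and 94.1 CPM (1.63, 0.88 to 2.46). The Cd207 Epcam cluster went the other way, 68.8 and 31.2 CPM (-1.14, -1.63 to -0.66), as did B cells, with 1 UMI in 6PGDKO (-2.49, -7.81 to 0.02). Cd8a, whose product binds class I on T cells, was 33.6 and 65.1 CPM in macrophages (0.96, 0.76 to 1.15). It was 31.7 and 61.3 CPM in monocytes (0.95, 0.48 to 1.45), and 46.7 and 11.1 CPM in the Cd207 Epcam cluster (-2.07, -2.85 to -1.35). The T cell and NK cell markers given above for macrophages were also higher in 6PGDKO. In monocytes and the Cd207 Epcam cluster these markers were not summed. Their part in the Ifng and Cd8a values was not tested in any type. Klrc1, which encodes NKG2A, was 40.0 and 62.6 CPM in T cells (0.64, 0.44 to 0.85). This value is over all T cells, and the part of the smaller Lef1 cluster of 6PGDKO in it was not tested. Irf1, which encodes an interferon-regulated transcription factor, was past the fold in neutrophils, at 433 and 209 CPM (-1.05, -1.68 to -0.44).

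Across the 18 values of 9 types and 2 libraries, the members formed no single pattern. As a description over types that share libraries and depth, Pearson's r between H2-Q6 and H2-Q7 was 0.82, between H2-Q4 and H2-Q7 0.81 and between H2-D1 and Tap2 0.80, while B2m ran against H2-Q4 (-0.57) and H2-Q6 (-0.46). B2m followed Tap1 (0.71). Nlrc5 followed Irf1 (0.83), and its r with the heavy chains lay between -0.32 and 0.32. The genes whose profile was nearest to the mean profile of the 10, of 10144 with at least 200 UMIs, were Dnajc12 (r = 0.79), Bdh1, Coro2a, Myl12a, Stimate, Tmem165, Dmap1, Il15ra, Sap30l and Tacc3 (0.77). Most of these were near the floor in the small groups. Dnajc12, Bdh1, Stimate, Il15ra and Tacc3 had 0 CPM in B cells and neutrophils of 6PGDKO, and Dmap1 had 0 CPM in those B cells. Their r therefore rests in part on groups with few UMIs.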

How the data were processed

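Single-cell RNA libraries of hashed cell suspensions, 1 per genotype and loaded together, were deposited as matrices of UMI counts per gene and barcode. The authors made these counts with Cell Ranger 6.1.2 and mm10, per the labels, and used Seurat. No columns of the authors' own comparisons were present. From the deposited counts, the 12 multiplexing features were set aside and barcodes were kept if they had 500 to 7500 genes and no more than 15% of UMIs from mitochondrial genes. Cells were clustered with Seurat 5.3.0 (SeuratObject 5.2.0, Matrix 1.6.5, R 4.3.3) on 2000 variable genes, 30 components and 20 neighbours at resolution 0.8, and clusters were named from marker lists. No doublet caller was run; an alternative left out cells with 2 or more UMIs of another lineage's markers.

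UMIs were summed per cell type and library and divided by the total (CPM). Ratios are 6PGDKO over WT, with exact conditional binomial intervals; levels have exact Poisson and shares exact Clopper-Pearson intervals (95%). PCR and sampling of mice are not covered by them. The fold used for counts was 0.5 on the log2 scale, over genes with at least 50 UMIs. With 1 library per genotype no p-value was computed. Scripts ran in Python 3.11.15 with numpy 2.4.6, scipy 1.17.1, pandas 2.3.3 and matplotlib 3.10.9. The code of the ratio intervals was run on simulated Poisson counts. These held counting error only, so the run cannot show how the intervals hold where cells or mice vary. Depth per library was 27245625 UMIs in WT and 28827045 in 6PGDKO.

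All 10 members are reported. Of the pathway genes, up to 4 per cell type with the largest ratio past the fold could be named, and the genes most like the members were the 10 with the highest Pearson correlation to their mean standardised profile of log2(CPM + 10). The members and lists were chosen with earlier results of these data known. The minimum of 5 keratin UMIs, the exclusion of the naive T cell cluster and the equal weighting of leukocyte types were chosen after seeing the data. Alternatives were a resolution of 1.6, a stricter cell filter, median-ratio scaling, per-cell means, thinning to 2000 UMIs and marker gates. For the share of all genes past the fold, minimums of 20 and 200 UMIs were also used.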

Additional observations from a re-analysis of the deposited data

How the results depend on the processing

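No paired analysis was possible because each genotype had 1 library, and no replicate could be left out. Each median of the 10 genes was given a band, from the median of their lower interval limits to that of their upper limits. Such a band is not a confidence interval of the median. It was wide in small groups, from -0.80 to 0.21 in B cells and from -1.21 to 0.14 in neutrophils, so staying within it says little there. Under all alternatives 71 medians stayed within their band and 10 did not. Of the single genes 534 stayed within their interval, 91 lay outside and 2 turned direction. The median of the 10 genes in T cells, 0.14, was 0.046 with median-ratio scaling and 0.047 without the naive cluster. In keratin-positive cells the median of 0.21 was -0.048 as a mean of per-cell CPM and -0.082 after thinning to 2000 UMIs, and in monocytes the median of 0.03 was -0.10 with marker gates. For epithelial cells over leukocytes, the WT median of 0.22 was 0.35 with the stricter cell filter and 0.38 after thinning, and the 6PGDKO median of 0.47 was 0.24 as a mean of per-cell CPM, 0.14 after thinning and 0.59 without cells carrying UMIs of another lineage. The 2 that turned were H2-Q7 in neutrophils, from -0.51 to 0.27 with the stricter cell filter, and H2-Q4 in keratin-positive cells, from 0.59 to -0.76 after thinning. The cause was not tested. The macrophage median lay between -0.17 and -0.09 in 7 of 7 alternatives. The share of all genes past the fold in macrophages, 11.3%, was 15.3% with at least 20 UMIs and 5.87% with at least 200. Counting limits the values of B cells in 6PGDKO (35 cells), neutrophils and keratin-positive cells most.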
